A study of Homo sapiens with 4 samples.

Results

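The replication-dependent genes of histones H3 and H4 were compared between Jurkat cells with and without siRNA against LEF1. The genes described are H3C2, H3C4, H3C8, H3C10, H4C3, H4C4, H4C8, H4C9, H4C11 and H4C16. The probe sets annotated to at least 1 of these 10 genes, alone or together with other H3C or H4C genes only, were found by Entrez gene number. The array covers 21359 genes by Entrez number, and 14 of its 54613 probe sets met this rule. Jurkat is a human T-cell acute lymphoblastic leukemia line, and no other line was measured. The siLEF1 group received 100 nM of a pool of LEF1 siRNAs and the siNT group 100 nM of a pool of non-targeting siRNAs, both with HiPerFect reagent, and RNA was taken 24 h later. Each group had 2 arrays (HG-U133 Plus 2.0), which the labels call biological replicates, and non-transfected cells were not analysed here. The values are RMA signals on the log2 scale.

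Each nucleosome wraps DNA around an octamer whose centre is a tetramer of H3 and H4. In S phase the cell needs large amounts of both, and many gene copies, most of them in a cluster on chromosome 6, supply them. Nearly all H4 copies encode the same protein, and the H3 copies listed here all encode histone H3.1. Their mRNAs normally end in a stem-loop bound by SLBP and not in a poly(A) tail. The labelling used here (GeneChip 3' IVT Express) starts from poly(A) tails, so the signals describe copies that carry A-rich ends, and the total amount of histone mRNA was not measured. Calls of lower or higher rest on limma, with a fold change over 2 and a Benjamini-Hochberg adjusted p under 0.05.

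With siLEF1, 5 of the 14 probe sets were called lower and 0 higher, against 0.183% of all probe sets called lower and 0.0238% called higher. At an unadjusted p under 0.05 from limma, 11 of the 14 were lower in value and 0 higher, against 8.79% of all probe sets lower. The largest differences were those of a pair of H4C8 probe sets, 25.6-fold and 11.2-fold lower as fitted, followed by a probe set shared by 10 H3 genes (7.27-fold), one shared by 14 H4 genes (5.09-fold) and H4C11 (4.29-fold). H4C9 did not share this direction, with a log2 difference of 0.07 (-0.15 with each array centred on housekeeping genes). The median log2 difference over the 14 probe sets was -1.59, where that of all probe sets was 0.04, and 10 of the 14 were over 2-fold lower in value, against 2.34% of all.

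The calls depended on the arrays used. Without siNT replicate 1, 10 of the 14 were called lower (2.36% of all probe sets). Without any one of the 3 other arrays limma called no probe set of the array lower, and none of the 14 higher. The median log2 difference of the 14 was -1.46 without siLEF1 replicate 1, -1.71 without siLEF1 replicate 2 and -1.30 without siNT replicate 2. In the last of these fits 214646_at had a log2 difference of 0.43. Each fit of this kind leaves 1 array alone in its group, and its spread is taken from the other group.

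The siRNA target LEF1 had 3 probe sets, and none was called. The probe set 221558_s_at had signals of 11.24 and 11.56 with siLEF1 and of 12.30 and 11.92 with siNT, a log2 difference of -0.71. For 210948_s_at the signals were 6.88 and 7.24 against 8.20 and 7.78 (-0.93), and for 221557_s_at they were 4.48 and 4.85 against 4.89 and 4.81 (-0.19). The groups overlapped in 221557_s_at and not in the other two. Of 9 T-cell markers, 8 lay above the array median on all 4 arrays, and CD2 did so on 3. Of the markers of B, myeloid, erythroid, epithelial and stromal cells, CD79A, CD79B, CSF1R, HBB, ALAS2, KRT8, KRT18 and COL1A1 lay above it on all 4 arrays, ITGAM on 3, CD14 on 1, and MS4A1, PAX5, MPO, LYZ, EPCAM, CDH1, COL1A2, COL3A1 and PDGFRB on none.

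The array resolved these genes unevenly. Of the 10 genes, 6 had a probe set of their own, with 2 for H4C8 and 1 each for H3C2, H3C8, H4C4, H4C9 and H4C11. Another 2 probe sets were annotated to the same 10 H3C genes and 5 to the same 14 H4C genes, and through these alone H3C10, H4C3 and H4C16 were covered. The accession behind a probe set tells more than this shared annotation. In RefSeq the accessions of 5 shared probe sets belong to 1 gene each, namely H3C10, H4C3, H4C8, H4C11 or, outside the 10 genes, H4C14 (207046_at), and that of a sixth (214516_at) belongs to H4C2. Whether a shared probe set reads that gene more than its copies was not measured. The probe set annotated to H4C11 alone (214463_x_at) carries an accession that RefSeq gives to H4C12, so it may be read as either gene. IDs ending in _x_at or _s_at, which mark probe sets that can match several transcripts, were 5 of the 14.

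H3C4 shared the 2 H3C probe sets, and its other probe sets, 214472_at and 214522_x_at, are also annotated to the H2A gene H2AC7 and were left out. Their log2 differences were -3.52 (adjusted p = 0.102 from limma) and -3.53 (adjusted p = 0.0958 from limma), and neither was called.

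Of the 10 genes, 9 lie on chromosome 6 (GRCh38.p14) and H4C16 on chromosome 12, from 14770720 to 14771131. H3C2 (26031589 to 26032099), H4C3 (26103933 to 26104337), H4C4 (26188710 to 26189112), H3C4 (26196784 to 26199293), H3C8 (26270918 to 26271413) and H4C8 (26285126 to 26285534) form the first group. H4C9 (27139282 to 27139678), H3C10 (27810051 to 27810536) and H4C11 (27824092 to 27824480) lie further along. Called probe sets were annotated to H4C8 alone in the first stretch and to H4C11 alone, with an H4C12 accession, in the second. The own probe set of H4C9 in the second was not called. Also called were 206110_at, with the H3C10 accession, and 207046_at. Each of these is shared by several genes and cannot be placed in a stretch.

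The sequences before the start sites are shown for H4C8, H4C11, H3C10, H4C9 and H3C2. H4C8 and H4C11 had called probe sets annotated to them alone, though that of H4C11 carries an H4C12 accession. For H3C10 the called probe set, 206110_at, is shared by 10 H3 genes and carries the H3C10 accession. The own probe sets of H4C9 and H3C2 were not called. The 250 bases before the start were read from RefSeq (GRCh38.p14) for 9 of the 10 genes, all but H4C3, in 10 windows because H3C4 has 2 starts. The letters GGTCCG, which lie in a proximal element of H4 promoters called Site II, were searched on both strands, as were CCAAT (the CCAAT box), TATAA (the TATA box) and CTTTGA (a core of sites bound by LEF1 and its TCF relatives). The windows of H4C8, with the largest differences, of H4C11 and of H4C9 are shown first, with GGTCCG in capitals. Those of H3C2 and H3C10 follow, with CCAAT in capitals, and all run 5′ to 3′ up to the base before the start.
H4C8, chr6:26285535-26285784, minus strand: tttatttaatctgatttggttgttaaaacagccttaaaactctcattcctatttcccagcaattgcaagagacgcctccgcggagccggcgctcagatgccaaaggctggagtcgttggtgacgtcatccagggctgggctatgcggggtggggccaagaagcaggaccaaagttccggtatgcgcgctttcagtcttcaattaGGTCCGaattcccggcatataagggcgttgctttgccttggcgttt
H4C11, chr6:27823842-27824091, plus strand: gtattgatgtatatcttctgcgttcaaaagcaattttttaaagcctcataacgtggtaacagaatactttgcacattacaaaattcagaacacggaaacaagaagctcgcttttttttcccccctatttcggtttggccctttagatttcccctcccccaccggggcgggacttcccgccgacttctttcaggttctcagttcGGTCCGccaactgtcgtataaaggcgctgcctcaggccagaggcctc
H4C9, chr6:27139032-27139281, plus strand: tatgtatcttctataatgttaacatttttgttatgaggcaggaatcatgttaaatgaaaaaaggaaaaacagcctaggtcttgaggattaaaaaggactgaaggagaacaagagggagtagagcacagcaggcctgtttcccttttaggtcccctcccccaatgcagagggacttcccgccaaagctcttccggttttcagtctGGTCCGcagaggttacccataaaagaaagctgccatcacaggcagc
H3C2, chr6:26032100-26032349, minus strand: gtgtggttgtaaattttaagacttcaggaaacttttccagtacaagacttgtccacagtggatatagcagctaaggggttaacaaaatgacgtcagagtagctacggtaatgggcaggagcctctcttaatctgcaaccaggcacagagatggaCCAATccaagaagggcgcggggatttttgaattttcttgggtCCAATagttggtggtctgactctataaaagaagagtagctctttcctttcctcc
H3C10, chr6:27809801-27810050, plus strand: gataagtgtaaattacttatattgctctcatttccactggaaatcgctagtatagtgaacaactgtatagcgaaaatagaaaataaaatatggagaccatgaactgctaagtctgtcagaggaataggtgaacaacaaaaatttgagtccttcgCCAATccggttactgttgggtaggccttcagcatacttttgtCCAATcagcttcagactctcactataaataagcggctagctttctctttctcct

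GGTCCG was in all 5 windows of the listed H4 genes and in 0 of the 5 of the listed H3 genes, against 9.43% of 35116 windows of all genes. Between its last base and the start lay 38 bases in H4C4, 39 in H4C16, 40 in H4C8 and H4C9 and 41 in H4C11. H4C9 therefore held it at the same distance as H4C8. CCAAT was in all 5 windows of the listed H3 genes and in 1 of the 5 H4 windows, that of H4C9, against 32.0% of all. TATAA was in all 10 windows (18.9% of all). It lay 24 bases before the start in H4C8 and 26 in H4C11, while the only exact match in H4C9 lay 234 bases before it. Near matches were not counted, and the H4C9 window also holds cataaaa between GGTCCG and the start. In H4C4, which was not called either, TATAA lay 24 bases before the start, as in H4C8. CTTTGA was in 0 of the 10 windows and in 11.2% of all. Over all H4C genes in the table GGTCCG was in 12 of 13 windows, and over all H3C genes CCAAT was in 13 of 13. These matches describe letters in short windows and no bound factor was measured. In H4C4 matches of TATAA on opposite strands overlap.

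**Figure D1:**
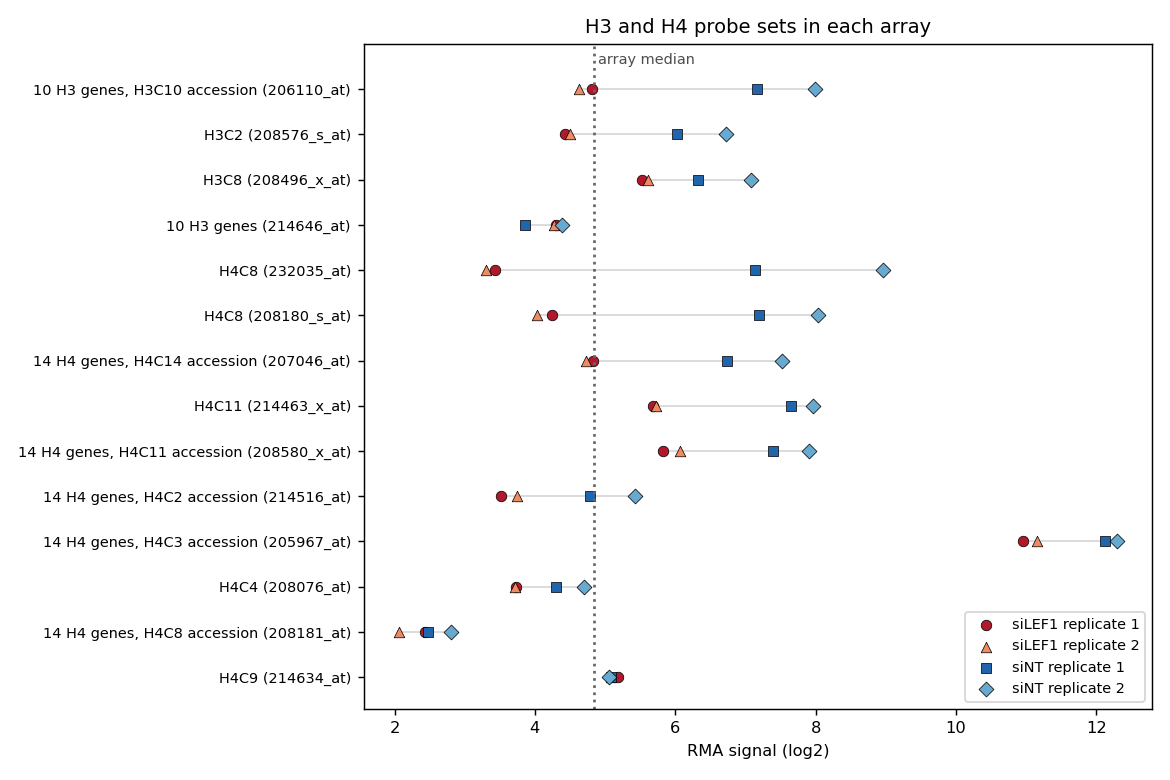
Horizontal axis: log2 RMA signal of the 14 H3 and H4 probe sets, 1 symbol per array (siLEF1 replicates 1 and 2 as circle and triangle, siNT replicates 1 and 2 as square and diamond), with the mean of the array medians as a dotted line. In 12 of the 14 probe sets both siLEF1 arrays lie to the left of both siNT arrays, and in H4C9 and 214646_at they overlap.

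H4C8, formerly HIST1H4H, encodes histone H4 and was called lower in each probe set annotated to it alone. In 232035_at the signals were 3.43 and 3.30 with siLEF1 and 7.13 and 8.96 with siNT. Both siLEF1 signals lay under the array medians (4.84 and 4.85) while both siNT signals lay well above them, and the siNT replicates differed by 1.82, the widest gap between replicates among the 14 probe sets. The log2 difference was -4.68 (standard error 0.53, 95% confidence interval -5.97 to -3.39, 2 arrays per group, adjusted p = 0.0477 from limma). By value it ranked 2 of all 54613 probe sets from the lowest. The siLEF1 signals lay near the lower quartiles of their arrays (3.34 and 3.30), and RMA values carry no detection call, so whether they were above background is not known and the 25.6-fold difference is a fitted value only. In 208180_s_at the signals were 4.24 and 4.03 with siLEF1 and 7.19 and 8.04 with siNT, a log2 difference of -3.48 (standard error 0.29, adjusted p = 0.0251 from limma). It ranked 12 by value. Another probe set built on an H4C8 accession, 208181_at, which is annotated to 14 H4 genes, gave 2.44 and 2.07 against 2.48 and 2.81. It lay under the lower quartile of every array, its log2 difference was -0.38 (95% confidence interval -0.87 to 0.10, adjusted p = 0.423 from limma), and it was not called. Signals this dim in both groups leave little room for a fall to be seen.

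For H4C11, formerly HIST1H4J, 214463_x_at had signals of 5.69 and 5.73 with siLEF1 and of 7.65 and 7.97 with siNT. All 4 signals lay above the array medians and the replicates of either group differed by at most 0.32. The log2 difference was -2.10 (standard error 0.17, 95% confidence interval -2.51 to -1.69, adjusted p = 0.0243 from limma), the smallest adjusted p of the 14 probe sets. The probe set with the H4C11 accession, 208580_x_at, had 5.82 and 6.07 against 7.39 and 7.90. Its groups did not overlap either, with a log2 difference of -1.70 (adjusted p = 0.0562 from limma), and it was not called.

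The other probe sets shared by 14 H4 genes ran from a call to a near miss. With the H4C14 accession, 207046_at had signals of 4.83 and 4.73 with siLEF1 and of 6.74 and 7.52 with siNT. It was called lower at a log2 difference of -2.35 (standard error 0.26, adjusted p = 0.0477 from limma). With the H4C2 accession, 214516_at had 3.51 and 3.75 against 4.79 and 5.42, a log2 difference of -1.48 (adjusted p = 0.084 from limma). Both siLEF1 signals of each of these probe sets lay under the array medians, and in neither did the groups overlap. With the H4C3 accession, 205967_at had 10.95 and 11.15 against 12.12 and 12.29. Its mean percentile on the arrays was 97.4 with siLEF1 and 99.2 with siNT. H4C3 (formerly HIST1H4C) also encodes H4. This probe set had replicates within 0.20 of each other in both groups and a log2 difference of -1.15 (standard error 0.16, 95% confidence interval -1.54 to -0.76, adjusted p = 0.0678 from limma). It was 2.22-fold lower in value and was not called.

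H4C4, formerly HIST1H4D, had signals of 3.73 and 3.72 with siLEF1 and of 4.30 and 4.70 with siNT in its probe set 208076_at. All 4 lay under the array medians without overlap, and the log2 difference of -0.77 (adjusted p = 0.147 from limma) was not called. H4C9, formerly HIST1H4I, had 5.19 and 5.09 against 5.09 and 5.05 in 214634_at. Here the groups overlapped, and the 95% confidence interval of the log2 difference, -0.28 to 0.43, leaves room for small changes in either direction. All signals of H4C9 lay just above the array medians. At siNT signals of 4.79 and 5.42, 214516_at had a log2 difference of -1.48. Whether the signal level of H4C9 hid a fall was not tested. H4C16, formerly HIST4H4, is covered by the 5 shared probe sets alone, and no value can be given for it by itself.

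Among the H3 probe sets, 206110_at, shared by 10 H3 genes and built on the accession of H3C10 (formerly HIST1H3H), was called lower. Its signals were 4.81 and 4.63 with siLEF1 and 7.17 and 7.99 with siNT. The siLEF1 signals lay just under the array medians and the siNT signals in the upper part of the array. The log2 difference was -2.86 (standard error 0.28, 95% confidence interval -3.53 to -2.19, adjusted p = 0.0384 from limma). The other probe set with the same annotation, 214646_at, had 4.30 and 4.27 against 3.86 and 4.39. Its log2 difference was 0.16 (95% confidence interval -0.34 to 0.67), and -0.07 with housekeeping centring. Its siLEF1 signals lay between those of the siNT replicates, and all 4 were under the array medians.

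H3C2, formerly HIST1H3B, encodes histone H3.1 and had signals of 4.43 and 4.50 with siLEF1 and of 6.03 and 6.72 with siNT in 208576_s_at. The groups were 1.53 apart at their closest, and the log2 difference of -1.91 (standard error 0.24, adjusted p = 0.0565 from limma) narrowly missed the threshold. H3C8, formerly HIST1H3G, had 5.52 and 5.61 against 6.32 and 7.08 in 208496_x_at. Its siNT replicates differed by 0.76 and the groups were 0.71 apart at their closest. The log2 difference was -1.13 (adjusted p = 0.139 from limma) and was not called. As a family, 1 of 4 H3 and 4 of 10 H4 probe sets were called lower, with median log2 differences of -1.52 and -1.59, and a difference between the families was not tested.

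**Figure D2:**
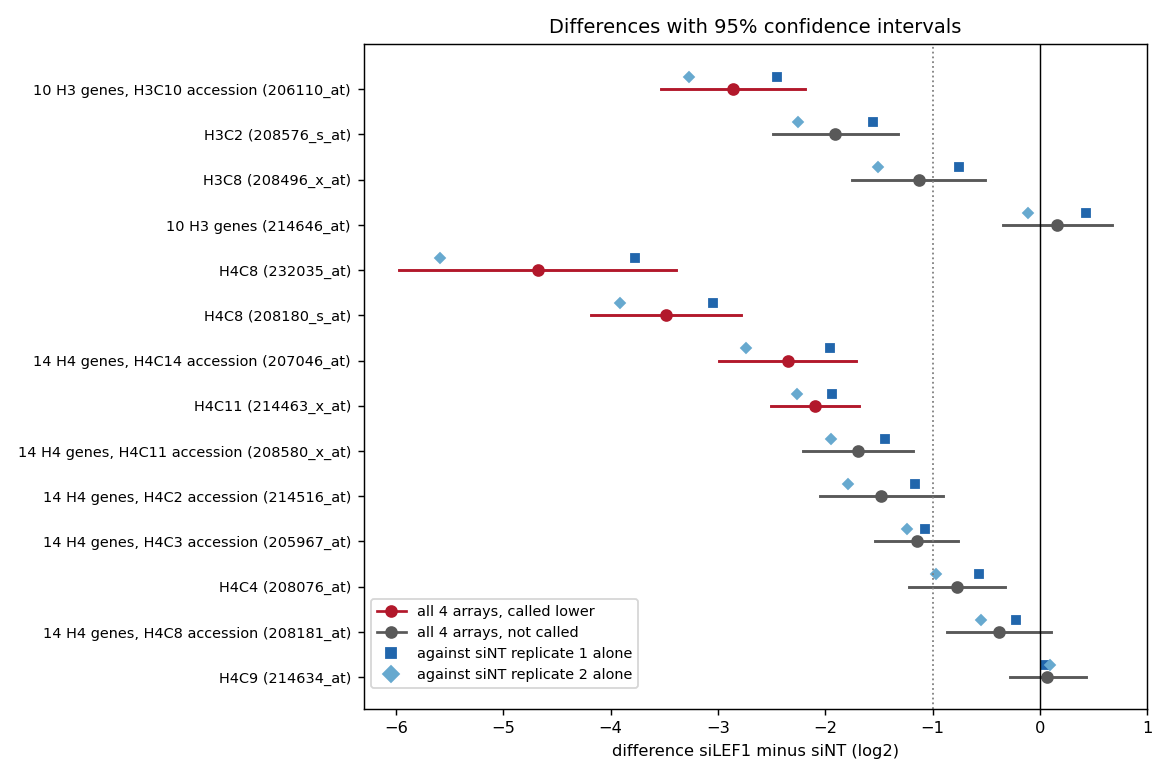
Log2 difference siLEF1 minus siNT of each H3 and H4 probe set (horizontal axis), with circles and lines for the estimate of all 4 arrays and its 95% confidence interval (red where called lower), and squares and diamonds for the mean of the siLEF1 arrays against siNT replicate 1 or 2 alone. The called probe sets lie between -4.68 and -2.10, and in 13 of the 14 probe sets the diamond lies to the left of the square.

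The gap between replicates was wider in the siNT group. In 13 of the 14 probe sets siNT replicate 2 was above siNT replicate 1 (51.2% of all probe sets), with a median difference of 0.59 (0.01 over all). In 11 of the 14 the gap between siNT replicates was wider than that between siLEF1 replicates (58.8% of all). The median gap was 0.59 with siNT and 0.12 with siLEF1, against 0.21 and 0.15 over all probe sets. Against siNT replicate 1 alone the median log2 difference was -1.30, and against siNT replicate 2 alone it was -1.87. For the H4C8 probe set 232035_at these values were -3.77 and -5.59, for 208180_s_at -3.05 and -3.91, and for H4C11 -1.94 and -2.26.

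The groups did not overlap in 12 of the 14 probe sets, siLEF1 being the lower group, against 21.2% of all probe sets, and 0 of the 14 had both siLEF1 arrays above both siNT arrays, against 27.4% of all. In 10 of the 14 the lowest siNT signal exceeded the highest siLEF1 signal by more than the gap between the replicates of either group, against 7.57% of all. The exceptions were H3C8, 208181_at, H4C9 and 214646_at.

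**Figure D3:**
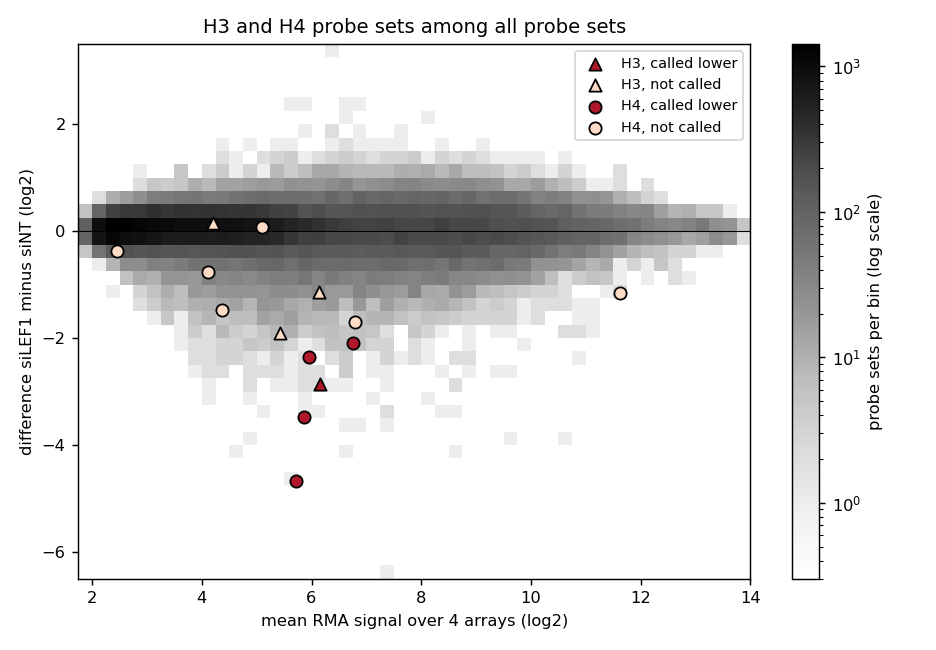
Log2 difference siLEF1 minus siNT (vertical axis) against the mean RMA signal over the 4 arrays (horizontal axis), with all 54613 probe sets counted in grey bins on a log scale and the H3 (triangles) and H4 (circles) probe sets on top, red where called lower. The called ones lie at the lower edge of the cloud, at differences of -2.10 to -4.68.

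The 5' minus 3' signal of ACTB, a measure of RNA integrity and labelling length, was -1.08 and -1.55 with siLEF1 and -1.80 and -1.95 with siNT. That of GAPDH was -0.34 and -0.32 against -0.39 and -0.65. These values move with the groups, and their part in the H3 and H4 differences was not tested. In bulk RNA labelled from poly(A) tails, fewer cells in S phase, less histone mRNA per cell and a smaller share with A-rich ends cannot be told apart.

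The other replication-dependent H3 and H4 genes had a median log2 difference of -0.48 (-0.18 without siNT replicate 2), with values from -1.11 to 0.09. Of 18 listed, 9 had a probe set of their own and 0 were called in either direction by limma. At an unadjusted p under 0.05 there were 3 lower and 0 higher, and 8 were below 0 in value. Of all 54613 probe sets, 23629 were below 0, and 8.79% were lower at that p. H3C11 had signals of 3.63 and 3.54 with siLEF1 and of 4.33 and 5.07 with siNT (-1.11, adjusted p = 0.141 from limma). H4C13 had a log2 difference of -0.56 and H4C5 one of -0.80, and neither was called. Of these 9 genes, 2 lay above the array median on all 4 arrays. Whether low signals hid a fall, or these 9 genes differed less than the genes described here, was not tested.

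Replacement H3 genes, whose mRNAs are polyadenylated, were represented by H3-3A and CENPA, which encodes the H3 variant of centromeres. H3-3A had signals of 6.78 and 6.45 with siLEF1 and of 6.38 and 6.52 with siNT, and CENPA had 8.93 and 8.95 against 8.96 and 8.59. In both the groups overlapped, with log2 differences of 0.16 and 0.17, which housekeeping centring turned below 0. Their median of 0.17 was 0.09 without siLEF1 replicate 1.

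The machinery that transcribes histone genes and cuts their mRNAs was listed with 21 genes, of which 20 were measured. By limma 0 were called in either direction, and at an unadjusted p under 0.05 there were 2 lower and 2 higher, with a median log2 difference of 0.05 that was -0.18 with housekeeping centring, -0.01 without siNT replicate 2 and 0.11 without siNT replicate 1. ZNF473, a zinc finger protein of histone mRNA 3' end processing, had signals of 8.39 and 8.29 with siLEF1 and of 8.80 and 9.70 with siNT, a log2 difference of -0.91 (adjusted p = 0.225 from limma). HINFP, which binds Site II of H4 promoters, had 8.14 and 8.07 against 8.45 and 9.30, a log2 difference of -0.77 (adjusted p = 0.27 from limma). In both the groups did not overlap, while the siNT replicates differed by 0.90 and 0.84. CCNE2, a cyclin of S phase entry, had a log2 difference of 0.54 and was not called. SLBP, CDK2, CCNE1 and CCNE2 stand in this list and in that of S phase.

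Chaperones of H3 and H4 carry newly made histones to DNA. All 15 listed were measured, 0 were called by limma, 1 was lower and 2 higher at an unadjusted p under 0.05, and the median log2 difference was 0.33 (0.10 with housekeeping centring, 0.15 without siNT replicate 2). ASF1A, a carrier of H3-H4 dimers, had 11.01 and 10.95 with siLEF1 against 11.40 and 11.73 with siNT (-0.58), while TONSL and RBBP7, which bind H3-H4 after replication and in assembly complexes, had log2 differences of 0.67 and 0.61. None of these was called, with adjusted p of 0.203, 0.202 and 0.221 from limma.

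The 26 S-phase genes measured all had log2 differences above 0, while 5 were below 0 with housekeeping centring. Their median was 0.34 (0.12 with housekeeping centring) and their range 0.04 to 0.84. By limma 0 were called, and at an unadjusted p under 0.05 there were 9 higher and 0 lower. Of all 54613 probe sets, 30984 were above 0 and 8538 were under that p, 4799 of them lower. TK1, which makes thymidine monophosphate, had 8.86 and 8.94 with siLEF1 against 8.48 and 7.65 with siNT (0.84, adjusted p = 0.236 from limma). The DNA polymerase genes POLD1 and POLE had log2 differences of 0.65 and 0.60, also not called. The median was 0.16 without siNT replicate 2, and 0.65 without siNT replicate 1, where 1 gene was called higher. For the 18 genes of G2 and M phase the median was 0.20 (-0.02 with housekeeping centring). Of these 0 were called by limma, and 4 were higher and 0 lower at an unadjusted p under 0.05, with CENPF, AURKB and BUB1B, which act in mitosis, at 0.64, 0.53 and 0.48. The 11 housekeeping genes had a median of 0.20 and 0 calls by limma, with 1 lower and 2 higher at an unadjusted p under 0.05, namely GUSB at -0.73, HPRT1 at 0.68 and TFRC at 0.38.

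**Figure D4:**
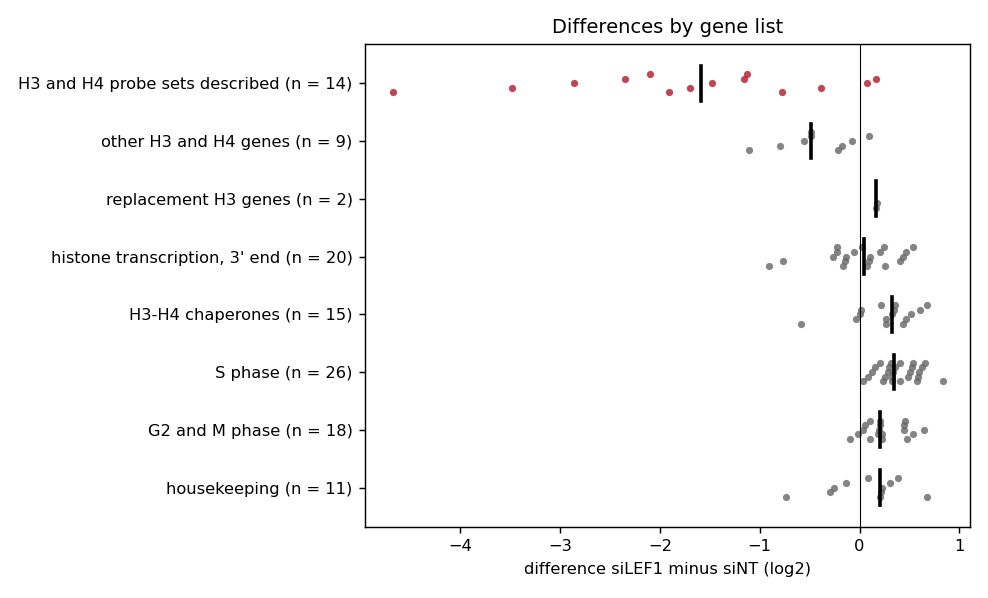
Log2 difference siLEF1 minus siNT (horizontal axis) of the 14 H3 and H4 probe sets and of the genes of 7 other lists, with 1 probe set per gene in the other lists, where points are probe sets and black bars are medians. The H3 and H4 probe sets have a median of -1.59, and the medians of the lists outside replication-dependent histones lie between 0.05 and 0.34 (-0.18 and 0.12 with housekeeping centring).

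The genes outside the histone families whose pattern over the 4 arrays was most like that of the H3 and H4 probe sets were SUGT1P3, OFD1, HRH1, RBM11 and LINC-PINT. Likeness was the Euclidean distance, after each probe set's mean was subtracted, from the median profile of the 7 H3 and H4 probe sets annotated to 1 gene, over 4 arrays and among 19713 genes. That profile was -0.99 and -0.92 with siLEF1 and 0.61 and 1.21 with siNT. The distances ran from 0.12 for the pseudogene SUGT1P3, which was called lower (log2 difference -1.83, adjusted p = 0.0454 from limma), to 0.19 for the noncoding RNA LINC-PINT. OFD1, a gene of centrioles and cilia, HRH1, a histamine receptor gene, and RBM11, which encodes an RNA-binding protein, had log2 differences of -1.80, -1.71 and -1.70, and none of them was called. Over 4 arrays in 2 groups, such a profile holds little beyond the group difference and the gap between the siNT replicates.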

How the data were processed

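Total RNA of 4 Jurkat samples was labelled with the GeneChip 3' IVT Express kit and hybridized to HG-U133 Plus 2.0 arrays. Signals were read and RMA-normalized by the authors with Expression Console (1.1 per the submitters' processing notes). The deposited log2 values hold 1 signal for each probe set on each array. It is not stated whether arrays of non-transfected cells were in the same RMA run. Precision is limited by how few arrays there are.

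Of 54675 probe sets, 62 controls were left out. Symbols were updated by Entrez number through RefSeq (GRCh38.p14; 21304 of 21359 numbers matched). Of the tested probe sets 41091 had 1 symbol, 1801 several and 11721 none. The difference siLEF1 minus siNT was fitted over all 54613 with limma 3.58.1 in R 4.3.3 (2-sided, Benjamini-Hochberg over the whole table, 2 residual and 4.30 prior degrees of freedom), with the thresholds of the paper's methods. The fit was run on simulated data with known changes, which checked the mean estimates only and not the calls. The paper compared 3 groups, and here there were 2. In the other lists a gene was represented by its brightest probe set on average among those with 1 symbol. Genes without such a probe set were left out, and the 3 with the smallest p are named. Names of like genes follow the distance described. The members and lists were chosen with earlier results of these data known. Nothing says that the biological replicates were separate cultures, so p-values measure the spread between these arrays.

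The alternatives were centring on array medians or on 11 housekeeping genes, other or no moderation, a block for the replicate number, filters at mean signals of 4 and 6, removal of 15499 _x_at and _s_at probe sets, 1 probe set per gene, other fold thresholds and each array left out.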

Additional observations from a re-analysis of the deposited data

How the results depend on the processing

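The number of H3 and H4 probe sets called lower was 5 of 14. It was within 1.5 times of that with an intensity trend and robust moderation (0.238% of all probe sets called lower). The same held with array median centring and both other fold thresholds (0.183% in each). With 1 probe set per gene 8 of the 14 were left and 5 were called (0.479% of all probe sets tested). Among them were 205967_at and H3C2, while 207046_at and 232035_at were not tested. The count was 0 without moderation, where 0 of all probe sets were called lower. It was 11 with housekeeping centring (2.32% of all probe sets, against 0.183%). This centring shifted each log2 difference by -0.23, so that over all probe sets the median was -0.19 and not 0.04. Filters at mean signals of 6 and 4 left 5 and 13 of the probe sets and called 0 and 2. Of all probe sets tested there, 0.0206% and 0.121% were called lower. Without _x_at and _s_at probe sets 3 of 9 were called (0.238% of all tested). With each array left out in turn the count ran from 0 to 10. The median log2 difference of -1.59 was -1.81 with housekeeping centring, -1.15 without _x_at and _s_at probe sets and between -1.87 and -1.30 with an array left out. The count called higher was 0 in all 16 alternatives. Only the centrings and the fits with an array left out can move the log2 difference of a probe set. The other alternatives repeat it by construction. With these repeats included, 200 of 203 values of single H3 and H4 probe sets kept their sign. The others were H4C9 at -0.15 with housekeeping centring and 214646_at at -0.07 with housekeeping centring and at -0.11 without siNT replicate 1 (0.43 without siNT replicate 2), none of them called. The cause of these changes was not tested.

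With the replicate number as a block, 10 of the 14 were called lower, with 1.79% of all probe sets. The labels give only a number, and the deviations of same-numbered arrays had a correlation of -0.15 over 54613 probe sets, so the crossed pairing was added after seeing the data and called 9, with 1.4% of all probe sets. Of the other lists, other H3 and H4 genes had 1 call with housekeeping centring, and with an array left out calls ran from 0 to 1 lower for other H3 and H4 genes and for housekeeping genes, from 0 to 2 lower for transcription and 3' end processing, and from 0 to 1 higher for S phase. In dim probe sets the signal over background limits what a difference can show.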
